A study of Mus musculus with 50 samples.

Results

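This account concerns the receptors of the interleukin-6 (IL-6) family of cytokines, the JAK-STAT molecules that carry their signal, and the inhibitors that this signal induces, in ageing mouse muscle. The members were chosen by gene symbol: the receptor genes Il6ra, Il6st, Osmr and Lifr, the signalling genes Jak2, Stat3 and Stat5a, and the inhibitor genes Socs2, Socs3 and Cish. Of the 10 symbols, 9 had a row among the 23880 genes of the tables, and all 9 were among the 12586 genes that passed the filter on low values. Jak2 was not analysed here. The gastrocnemius, a calf muscle, was profiled by RNA sequencing of stranded poly(A) libraries in 50 male wild type C57BL/6JRj mice, each mouse giving 1 library. There were 8 mice each at 8, 18, 22 and 24 months of age and 9 mice each at 26 and 28 months. All mice received an AIN-93M diet: the 8- and 18-month groups were moved to it some months before the end point, whereas the 22-, 24-, 26- and 28-month groups ate it from about the age of the 18-month group onward, so that age and time on the diet cannot be told apart. Mice with overt illness or tumours were left out by the study, which limits the oldest groups to animals free of both.

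In this pathway a cytokine binds a receptor on the cell surface, and 2 receptor chains bring together JAK kinases, which phosphorylate STAT transcription factors. Il6ra encodes the IL-6-binding chain, Il6st the shared signalling chain gp130, and Osmr and Lifr the chains that pair with gp130 for oncostatin M and leukaemia inhibitory factor. STAT3 is the main STAT below gp130, and STAT5A acts below receptors such as the growth hormone receptor. Socs3, Socs2 and Cish are induced by STATs and encode proteins that dampen the same receptors, a negative feedback. In muscle, IL-6 family signals are known from exercise, repair and wasting.

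The libraries held between 13607229 and 21267375 counts. Replicate 2 of 28 months had the highest coordinate on the first principal component of the transcriptome, 63.8 against 46.1 for the next mouse. It was the far end of a wide spread, the 28-month mice starting at -5.21. Results that rest on this mouse are given with and without it. The 10 skeletal muscle markers, among them Acta1 and Ckm, were present in every mouse, their summed level running from 169143 to 191531 TPM (the deposited level per length) at 8 months and from 137790 to 213281 TPM at 28 months. Since the libraries are from bulk tissue, a change in the number of cells of a type and a change in RNA per cell cannot be told apart.

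STAT dimers bind the palindrome TTCNNNGAA, and the windows around the annotated transcription starts of the members (250 bases before to 50 after, RefSeq, GRCm38.p6) were searched for it, both strands reading the same because the motif is a palindrome. Windows were held for 8 of the 9 members, all but Socs2, and the motif was found in those of 2 members, Socs3 and Cish. Of all 32851 windows of this length 8.30% held it, and of the 27025 genes with a window 9.55% had one that did. The stretches below show these matches, in capitals, beside the windows of the members with the largest difference in age (Il6ra) and with the clearest separation of mice (Stat3), which held none. Each is printed 5′ to 3′ on the strand of the gene.
Socs3, chr11:117969467-117969616, minus strand: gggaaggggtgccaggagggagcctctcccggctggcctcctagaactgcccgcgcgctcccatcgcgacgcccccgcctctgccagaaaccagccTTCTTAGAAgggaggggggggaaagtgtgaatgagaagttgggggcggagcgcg
Cish, chr9:107296654-107296683, plus strand: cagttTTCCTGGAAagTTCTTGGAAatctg
Il6ra, chr3:89913197-89913346, minus strand: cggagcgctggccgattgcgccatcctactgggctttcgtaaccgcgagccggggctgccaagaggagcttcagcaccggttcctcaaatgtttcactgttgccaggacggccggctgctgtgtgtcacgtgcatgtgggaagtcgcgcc
Stat3, chr11:100939541-100939690, minus strand: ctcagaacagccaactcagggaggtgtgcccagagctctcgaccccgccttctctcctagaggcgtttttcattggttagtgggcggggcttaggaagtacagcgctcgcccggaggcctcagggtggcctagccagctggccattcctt
The Socs3 match began 154 bases before the RefSeq start. The Cish matches began at bases 1 and 12 of the RefSeq transcript, inside the GENCODE gene model, which starts farther upstream. A match is a description of letters, and no match says only that these letters were not in the window.

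On the scale of TPM at 8 months, Il6st had the highest mean level of the members (48.2 ± 9.29 TPM, SD, n = 8), followed by Stat3 (32.1 ± 5.16), Lifr (14.0 ± 5.90), Stat5a (8.33 ± 1.34), Socs2 (8.12 ± 2.45), Cish (7.47 ± 6.29), Osmr (5.30 ± 1.75), Il6ra (3.10 ± 0.798) and Socs3 (3.05 ± 1.18). Only between Stat3 and Lifr did the mice of neighbours in this order not overlap. At 28 months Stat3 had the highest mean (74.6 ± 53.9 TPM, n = 9), ahead of Il6st (72.3 ± 17.2), and Il6ra had 15.8 ± 15.9 TPM. At that age the mice of Il6st and Lifr (20.1 ± 2.46 TPM) did not overlap, while every other pair of neighbours did.

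**Figure D1:**
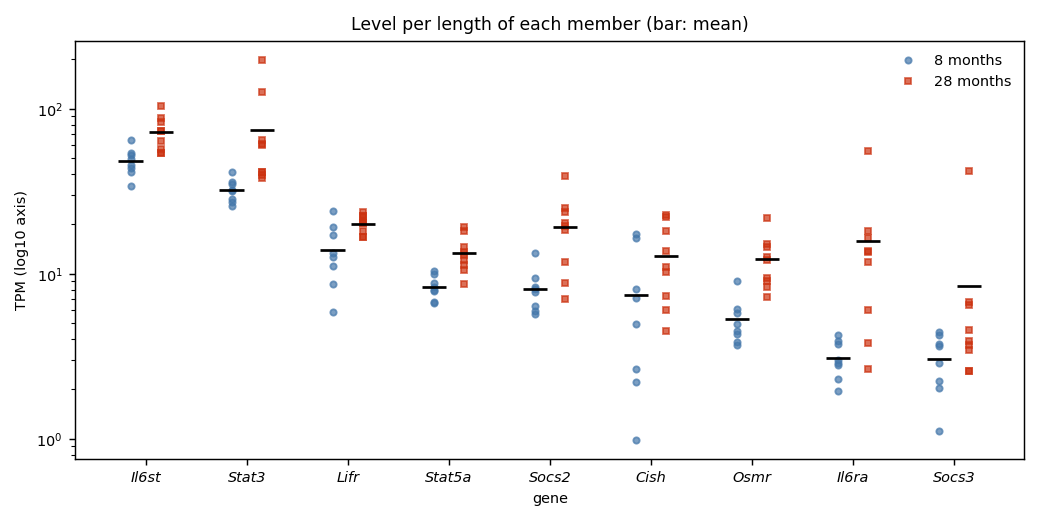
Level of each member in TPM (vertical axis, log10) in each mouse of 8 months (circles) and 28 months (squares), with the mean as a bar and genes ordered by their mean at 8 months. The means of Il6st and Stat3 lie above those of the other members at both ages, while single mice overlap at 28 months, and the 28-month mice of Il6ra spread from 2.65 to 55.5 TPM.

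Of the 9 members, 7 rose between 8 and 28 months at a false discovery rate (FDR) below 0.01 in edgeR's quasi-likelihood test, adjusted over all genes tested: the receptors Il6ra, Il6st and Osmr, both STAT genes, and the inhibitors Socs2 and Socs3. Without replicate 2 of 28 months the count was 5 of 9, Socs2 and Socs3 no longer passing. No member was lower. Across all genes tested, 39.6% passed in this comparison (4988 genes), 21.0% as higher and 18.7% as lower. The median log2 fold change was 1.07 over the members and 0.01 over all genes tested. Levels that follow are in CPM, read counts scaled for library size, which compare mice but not genes.

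Il6ra (chr3:89864059-89913196), the gene of the IL-6-binding chain, ran from 7.33 to 13.5 CPM at 8 months with a median of 11.4, and from 8.96 to 155 CPM at 28 months with a median of 44.2. At 28 months 7 of 9 mice lay above every 8-month mouse, and the other two, replicates 3 and 4, lay inside the 8-month range. The log2 fold change was 2.17 (SE 0.35, FDR 2.8e-06), and 1.70 without replicate 2 (FDR 1.8e-05). The coefficient of variation among mice was 21.33% at 8 months and 89.9% at 28 months, or 54.5% without that mouse.

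Il6st (chr13:112464070-112510086), which encodes gp130, ran from 186 to 266 CPM at 8 months with a median of 227, and from 251 to 425 CPM at 28 months with a median of 333. The groups overlapped, with 6 of 9 old mice above every young mouse. Its difference was smaller than that of the ligand-specific chains Il6ra and Osmr in value, with a log2 fold change of 0.51 (SE 0.10, FDR 8.4e-05).

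Osmr (chr15:6813577-6874969), the gene of the oncostatin M receptor chain, ran from 8.88 to 16.6 CPM at 8 months with a median of 11.6, and from 14.6 to 38.7 CPM at 28 months with a median of 25.2. Only replicate 3 of 28 months fell inside the 8-month range. The difference was 1.07 on the log2 scale (SE 0.16, FDR 9.5e-07).

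Lifr (chr15:7090614-7197489) is the neighbour of Osmr on the same chromosome, with a gap of 216 kb and no other gene of the tables starting between them. It ran from 13.7 to 44.4 CPM at 8 months with a median of 27.6, and from 34.8 to 50.6 CPM at 28 months with a median of 40.8. Here the spread was on the young side: the coefficient of variation was 36.4% at 8 months and 12.6% at 28 months, and just 1 old mouse lay above every young mouse. The log2 fold change of 0.48 (SE 0.17, FDR 0.0137) missed the threshold, with a 95% interval from 0.14 to 0.82, and passed in DESeq2 (FDR 0.0093), with limma on log2(TPM + 1) (FDR 0.0074) and without replicate 2, 6 or 8 of 8 months.

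Stat3 (chr11:100885098-100939540), the STAT below gp130, ran from 49.0 to 62.0 CPM at 8 months with a median of 58.5, and from 67.0 to 289 CPM at 28 months with a median of 98.4. It was the member with no overlap: every 26-month mouse and every 28-month mouse lay above every 8-month mouse. Among all genes tested, 2.46% (309 genes) had every 28-month mouse above every 8-month mouse. Its log2 fold change was 1.11 (SE 0.19, FDR 8.5e-06). Replicate 2 of 28 months held the highest value, and the difference without it was 0.83 (FDR 4.0e-05).

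Stat5a (chr11:100859351-100885169) lies on the other strand beside Stat3, the gene models overlapping by under 100 bases at their 3′ ends, and the counting used strand. It ran from 14.4 to 19.1 CPM at 8 months with a median of 16.2, and from 16.1 to 35.5 CPM at 28 months with a median of 23.9. Of the old mice, 7 of 9 lay above every young mouse, for a log2 fold change of 0.58 (SE 0.12, FDR 8.0e-05). Its near-identical paralog Stat5b, whose reads the counting could split with it, ran from 217 to 312 CPM at 8 months and from 238 to 584 CPM at 28 months, and its difference of 0.43 (SE 0.16, FDR 0.0210) missed the threshold. The value for Stat5a is therefore uncertain.

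Socs2 (chr10:95385362-95417180), known as a brake on growth hormone signalling, ran from 5.82 to 15.5 CPM at 8 months with a median of 8.09, and from 6.83 to 33.9 CPM at 28 months with a median of 19.3. Of the old mice, 6 of 9 lay above every young mouse. Its log2 fold change was 1.10 (SE 0.30, FDR 0.00247), and 0.93 without replicate 2 of 28 months (FDR 0.0103), just past the threshold.

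Socs3 (chr11:117966079-117970047), the inhibitor that binds gp130, ran from 1.65 to 6.31 CPM at 8 months with a median of 4.65, and from 3.63 to 49.9 CPM at 28 months with a median of 5.43. Replicate 2 was the mouse at 49.9 CPM, and the next was at 10.003 CPM. The groups overlapped for most mice, 4 of 9 old mice lying above every young mouse. The log2 fold change of 1.32 (SE 0.40, FDR 0.00576) was 0.45 without that mouse (FDR 0.244), so the call rested on it. It was also lost without replicate 2, 6 or 7 of 8 months, with limma on log2(TPM + 1) (FDR 0.0510), with the 2 ages alone (FDR 0.0356) and with the replicate number as a block (FDR 0.0237).

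Cish (chr9:107296026-107302784), a STAT5-induced inhibitor, varied more among the young mice than any other member, from 1.30 to 25.2 CPM at 8 months with a median of 8.72. At 28 months it ran from 6.14 to 31.1 CPM with a median of 13.5, inside much the same range. Its log2 fold change of 0.73 (SE 0.56, FDR 0.273) did not pass, and its 95% interval ran from -0.39 to 1.85.

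**Figure D2:**
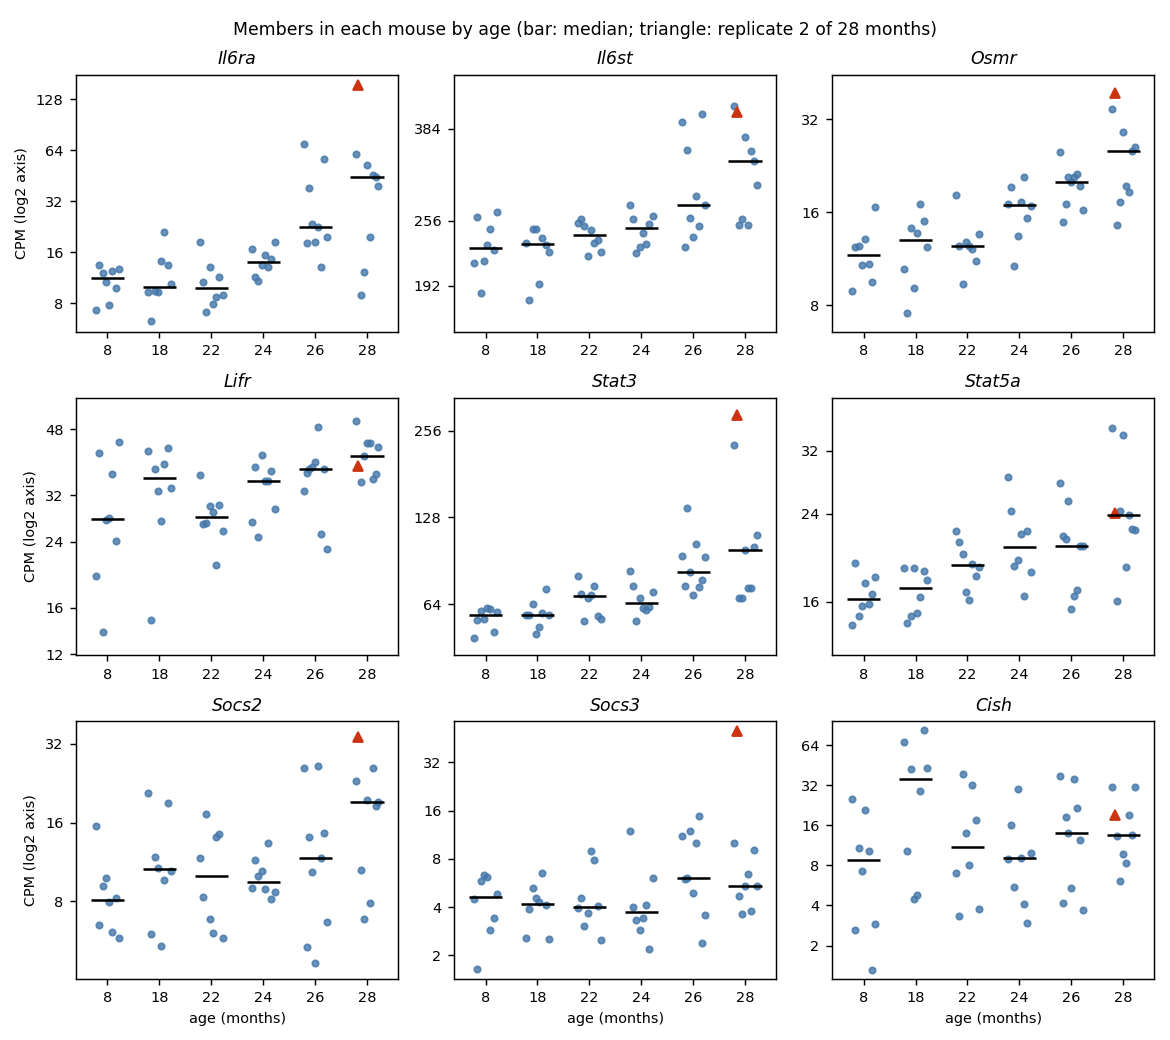
CPM of the 9 members (vertical axes, log2) in each of the 50 mice, by age in months, with the median of each age as a bar and replicate 2 of 28 months as a triangle. Stat3 at 26 and 28 months lies above all 8-month mice, Socs3 at 28 months has 1 mouse at 49.9 CPM far above the others, and Cish is highest at 18 months.

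Against 8 months, members passed at 26 and 28 months and at none of the younger ages. At 26 months 4 of 9 members were higher than at 8 months, against 18.4% of all genes (9.84% higher and 8.54% lower). Il6ra had a log2 fold change of 1.52 (FDR 8.9e-04), Osmr of 0.72 (FDR 7.4e-04), Stat3 of 0.64 (FDR 0.0078) and Il6st of 0.38 (FDR 0.0050). Leaving out replicate 1, 3 or 4 of 8 months, or replicate 1 or 3 of 26 months, left 2 of 9, Il6ra and Osmr, as did limma on log2(TPM + 1). The call of Stat3 at 26 months was lost when any 1 of the 8-month mice was left out, with FDRs up to 0.0267 over the mice left out. Il6ra at 26 months ran from 13.1 to 69.4 CPM with a median of 22.6, and 8 of 9 mice lay above every 8-month mouse.

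At 18, 22 and 24 months none of the 9 members passed against 8 months in edgeR, where 0.0715%, 0.0397% and 0.612% of all genes passed, nor did any in DESeq2. At an unadjusted p below 0.05, edgeR gave 1 member at 18 months (Cish), 0 at 22 months and 2 at 24 months (Osmr and Stat5a), against 3.65%, 9.01% and 19.2% of all genes, and DESeq2 gave the same numbers of members. Osmr at 24 months already ran from 10.7 to 20.7 CPM with a median of 16.9, and 5 of 8 mice lay above every 8-month mouse. Its log2 fold change of 0.46 had an FDR of 0.112.

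Cish stood highest at 18 months rather than at an old age. It ran there from 4.44 to 83.7 CPM with a median of 35.7, and 5 of 8 mice lay above every 8-month mouse. The log2 fold change of 1.83 against 8 months (SE 0.57) had an FDR of 0.522 over all genes, so the difference did not pass. From 18 to 22 months its log2 fold change was -1.20 (SE 0.56, FDR 0.999).

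Between successive ages no member passed in edgeR or DESeq2, and DESeq2 gave no adjusted p for 6 members from 24 to 26 months. From 18 to 22 months 0.00795% of all genes passed (1 gene), and 0.0% did in each later step. At an unadjusted p below 0.05 the counts of members were 1 from 18 to 22 months (Cish), 1 from 22 to 24 months (Osmr), 3 from 24 to 26 months (Il6ra, Il6st and Stat3) and 4 from 26 to 28 months (Il6ra, Osmr, Stat3 and Stat5a). The shares of all genes at that level were 4.15%, 3.8%, 17.5% and 12.8%, and DESeq2 gave the same counts of members.

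Between the 22- and 28-month groups, which went onto the diet at a like age but differed in time on it, 6 of 9 members rose, against 27.7% of all genes (16.2% higher and 11.5% lower). These were all 4 receptor genes and both STAT genes. Il6ra had a log2 fold change of 2.18, Osmr of 0.96, Stat3 of 0.89, Lifr of 0.54 (FDR 0.0082), Il6st of 0.45 and Stat5a of 0.37 (FDR 0.0087). Lifr and Stat5a both lost their calls when replicate 1, 2 or 5 of 28 months was left out, leaving 4 of 9, Lifr also without replicate 6 or 9 and Stat5a also without replicate 4 or 7. The inhibitors Socs2 (0.80, FDR 0.0286) and Socs3 (1.18, FDR 0.0159) missed the threshold. In the test for a difference at any age, 6 of 9 members passed (Il6ra, Il6st, Osmr, Stat3, Stat5a and Socs3), against 35.4% of all genes. Socs3 (FDR 0.00749) lost this call without replicate 2 of 28 months (FDR 0.0772), leaving 5 of 9, and also without replicate 1 of 28 months or replicate 6 or 7 of 8 months, with upper-quartile factors, with limma and with the replicate block (FDR 0.0318). These comparisons share mice and are not independent.

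**Figure D3:**
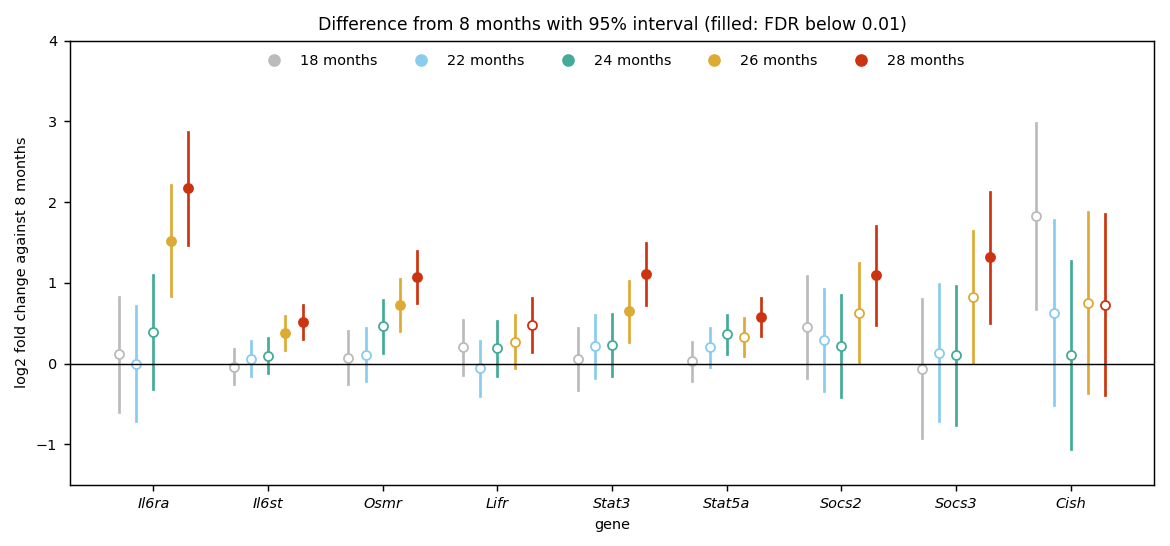
Log2 fold change of each member against 8 months (vertical axis) with its 95% interval, at 18, 22, 24, 26 and 28 months, filled where the FDR was below 0.01. The filled points are at 26 and 28 months alone, from 0.38 for Il6st to 2.17 for Il6ra.

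The old mice did not carry the members' high values alike. At 28 months replicate 1 lay above every 8-month mouse in 9 of 9 members and replicates 2, 8 and 9 in 7 of 9, whereas replicate 3 did so in 1 (Stat3) and replicate 4 in 3. At 26 months replicates 1 and 6 did so in 8 of 9 members and the other mice in 3 to 5. The share of all genes above every 8-month mouse was not counted mouse by mouse. These 28-month mice also differed over the transcriptome. On the first principal component replicates 3 and 4 were at -5.21 and 4.46, and replicate 1 was at 46.1. The split is therefore not shown to be particular to the members.

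Within ages the members varied together to different degrees, and not alike at each age. The mean of each age was subtracted from log2(CPM + 1). Over the 50 mice 35 of the 36 pairs of members then had a positive Pearson's r. The median over the 36 pairs was 0.36 (0.35 without replicate 2 of 28 months), which is a description and shares depth and tissue make-up. The share of positive pairs among all genes was not counted. Every member also projected toward the old side of the first principal component, from 1.06 SD of all genes (Lifr) to 4.43 SD (Il6ra). The part of that component in these correlations was not tested. The positive correlations are therefore not shown to be particular to the members. Among the pairs, Il6ra and Il6st gave the highest r, 0.76 (Spearman's rho 0.69), positive in all 6 ages. It was 0.94 at 26 months and 0.91 at 28 months but 0.05 at 22 months. Some other pairs changed sign between ages. Il6ra with Socs2 had -0.74 at 8 months and 0.90 at 28 months, and was positive in 3 of 6 ages. Stat5a with Socs2 had -0.75 at 8 months and 0.75 at 18 months, and was positive in 4 of 6 ages. Il6ra with Osmr gave 0.68 and with Stat3 0.67, which were 0.63 and 0.54 without replicate 2 of 28 months (rho 0.56 and 0.46 over all mice). Socs3 with Stat3 gave 0.59, which was 0.36 without replicate 2 of 28 months. The 1 negative pair was Lifr with Socs3, at -0.15.

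**Figure D4:**
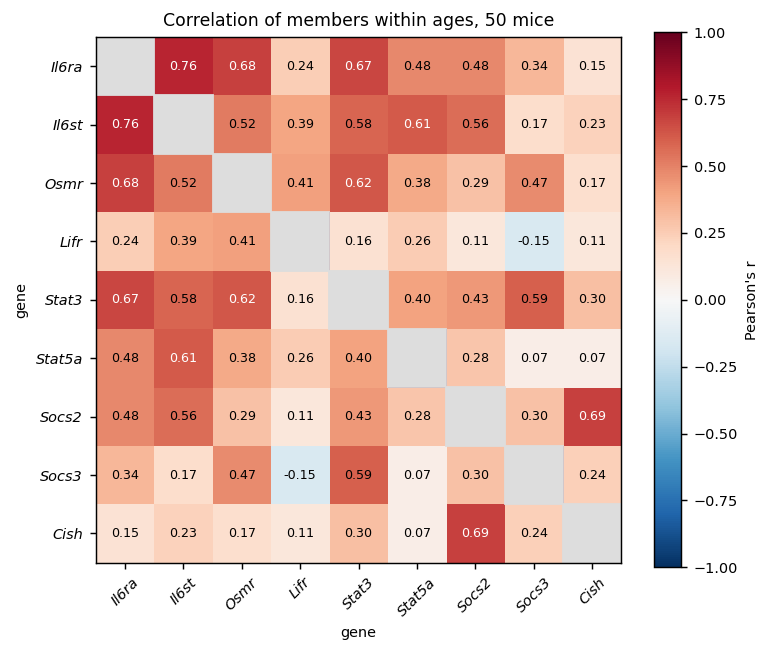
Pearson's r between members after subtraction of each age's mean, over 50 mice (rows and columns are genes, the colour scale runs from -1 to 1, grey marks a gene with itself). Il6ra, Il6st, Osmr and Stat3 share values from 0.52 to 0.76 (0.47 to 0.75 without replicate 2 of 28 months, not drawn), Socs2 and Cish have 0.69, and Socs2 has 0.56 with Il6st.

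Between Socs2 and Cish r was 0.69 (rho 0.68, and 0.70 without replicate 2 of 28 months), positive in all 6 ages from 0.12 at 24 months to 0.94 at 26 months, although Cish did not pass against 8 months and Socs2 did. Cish gave 0.07 with Stat5a, 0.30 with Stat3, 0.23 with Il6st and 0.15 with Il6ra. Socs2 gave 0.28 with Stat5a, 0.43 with Stat3, 0.56 with Il6st and 0.48 with Il6ra. None of these pairs was positive in all 6 ages. Socs2 with Il6st ran from -0.70 at 8 months to 0.89 at 28 months. Of the 9190 genes with a mean of at least 5 CPM, Socs2 was the most like Cish by Pearson's r, followed by Flvcr1 (0.68) and Trib2 (0.57). Flvcr1 came before Socs2 by Spearman's rho (0.70 against 0.68) and without replicate 2 of 28 months (both 0.70). Those most like Socs2 were B4galt1 (0.77), the cationic amino acid transporter gene Slc7a2 (0.74) and Klhl21 (0.71).

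**Figure D5:**
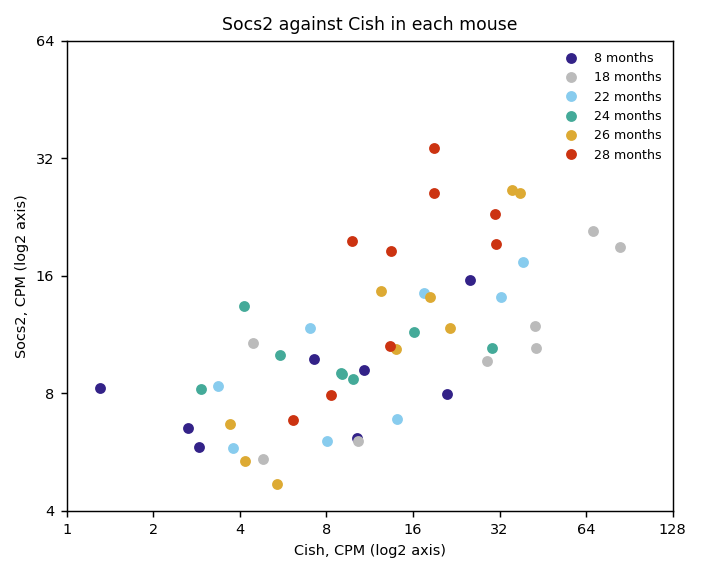
Socs2 (vertical axis) against Cish (horizontal axis) in CPM on log2 axes, each point a mouse coloured by age. Mice high in Cish tend to be high in Socs2, least so at 24 months, with the 18-month mice reaching 83.7 CPM of Cish and the 28-month mice reaching 33.9 CPM of Socs2.

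The genes most like the other members by the same measure were these. For Il6ra they were Foxo3, a transcription factor known in muscle atrophy (0.92, rho 0.91), Med15 (0.92) and Lrrc58 (0.90). For Il6st they were Arnt (0.92), Erbin (0.91) and Phf3 (0.90). For Osmr they were Safb2 (0.81), Ifi207 (0.80) and Gda (0.80). For Lifr they were Heg1 (0.87), Nos1, the neuronal nitric oxide synthase of muscle (0.87), and the dystrophin relative Utrn (0.86). For Stat5a they were Tpcn1 (0.81), Cpd (0.80) and Gnptab (0.78). For Stat3 they were Serpina3n, a secreted protease inhibitor (0.80), Il4ra (0.80) and Pum3 (0.79), which were 0.67, 0.66 and 0.66 without replicate 2 of 28 months and then stood at ranks 48, 58 and 55, so that their place as the most like Stat3 rested on that mouse. For Socs3 they were the Toll-like receptor adaptor gene Myd88 (0.81), Plekho2 (0.79) and Litaf (0.73), which were 0.69, 0.73 and 0.61 without that mouse. All values are Pearson's r over 50 mice, chosen as the highest of many and given as a description.

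Along the first principal component, computed from the same mice, each member's projection pointed toward the old side. It ran from 1.06 SD of all genes for Lifr to 4.43 SD for Il6ra, which lay above 99.8% of 12452 genes. The count per TPM of a member, which moves with the lengths of the transcripts in use, differed between 8 and 28 months by -0.09 to 0.06 on the log2 scale, the largest being Osmr.

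The ligand genes Il6, Osm and Lif were near the limit of detection. Il6 had a count in 37 of 50 mice and a median of 0.112 TPM, Osm in 29 of 50 with a median of 0.0461 TPM, and Lif in 50 of 50 with a median of 0.129 TPM. Not all ligand genes were this low. Ctf1 and Cntf each had a count in 50 of 50 mice, with medians of 11.7 and 4.89 TPM. Of 4 further receptor genes 2 were tested and 1 fell, Il11ra1, the IL-11-binding chain, from a median of 55.0 to a median of 43.8 CPM (log2 fold change -0.39, SE 0.10, FDR 0.00167).

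Among 7 other JAK and STAT genes tested, 1 passed from 8 to 28 months, Jak3, the kinase paired with the common gamma chain, from a median of 4.18 to a median of 6.58 CPM (0.63, SE 0.16, FDR 7.8e-04). Among 12 other inhibitors tested 4 rose and 1 fell, a share near the 39.6% of all genes that passed. The largest of them were Ptpn1, a phosphatase of JAK kinases, from a median of 24.96 to a median of 33.0 CPM (0.59, SE 0.12, FDR 8.1e-05), and Pias4, from a median of 12.6 to a median of 17.2 CPM (0.43, SE 0.09, FDR 2.3e-04). The median log2 fold change was 0.20 for the former list and 0.24 for the latter, against 0.01 over all genes.

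Of 15 tested genes known as STAT3 targets, 10 rose and 2 fell, beside 39.6% of all genes passing, with a median log2 fold change of 0.83. Lcn2, the iron-binding lipocalin, ran from 0.394 to 1.14 CPM at 8 months and from 0.193 to 53.5 CPM at 28 months (3.55, SE 0.67, FDR 3.0e-05). Its medians were 0.674 and 3.14 CPM. Serpina3n ran from 4.04 to 8.51 CPM and from 6.77 to 271 CPM (3.04, SE 0.49, FDR 2.9e-06). Its medians were 5.56 and 13.4 CPM. Both spread widely among old mice, 6 and 7 of 9 lying above every young mouse. The highest old mice lay far above the medians, and values without replicate 2 of 28 months are not given for these 2 genes. Of 8 tested genes of the STAT5 axis 2 rose and 1 fell, again a share near that of all genes, with a median of 0.35. Csf2rb, the common receptor chain for granulocyte-macrophage cytokines, ran from 1.55 to 3.90 CPM and from 4.51 to 23.7 CPM without overlap (1.82, SE 0.28, FDR 1.6e-06). Bcl6, a repressor that STAT5 lowers in liver and lymphocytes, ran from 72.6 to 175 CPM and from 30.2 to 70.05 CPM, also without overlap (-1.35, SE 0.21, FDR 1.2e-06).

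Markers of other cell types also changed from 8 to 28 months, where 21.0% of all genes passed as higher and 18.7% as lower. Of 10 macrophage markers 7 rose from 8 to 28 months, and their summed level ran from 193 to 331 TPM at 8 months and from 303 to 825 TPM at 28 months, highest in replicate 2. Of 6 neutrophil markers 5 had a row and 4 were tested, all 4 of which rose, with sums from 3.15 to 9.41 TPM and from 13.5 to 280 TPM, again highest in replicate 2 of 28 months. The 10 lymphocyte markers summed to 1.52 to 3.23 TPM at 8 months and 3.41 to 16.6 TPM at 28 months. Of 8 fibroblast markers 6 fell, with sums from 795 to 1156 TPM and from 642 to 864 TPM, and of 6 adipocyte markers 5 fell, with sums from 99.7 to 383 TPM and from 87.4 to 201 TPM. From 22 to 28 months, where 27.7% of all genes passed, 1 of 10 macrophage markers rose and 0 of 4 tested neutrophil markers passed. In that comparison 5 of 8 fibroblast and 2 of 6 adipocyte markers fell. The median neutrophil sum was 25.5 TPM at 22 months and 28.5 TPM at 28 months. None of these markers was at 0 in all mice, and their part in the members' differences was not tested.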

How the data were processed

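Gastrocnemius RNA of 50 mice, grouped by the age in the labels, was sequenced. The authors trimmed reads with cutadapt 1.9.1, assigned them to protein-coding mouse transcripts (GRCm38) with kallisto 0.43.1 in its stranded mode, shared reads that fitted several transcripts among them, and deposited read counts and TPM per gene. Here the deposited counts were tested with edgeR 4.0.16 (R 4.3.3): TMM factors, a filter that kept genes reaching 1 CPM in 8 or more mice, a quasi-likelihood fit over the 6 ages, Benjamini-Hochberg adjustment over all genes and an FDR threshold of 0.01. It was tested on simulated data with known changes. DESeq2 1.42.0 and limma 3.58.1, on log2(TPM + 1) and log2(TPM + 0.1), other normalizations, no filter, the 2 ages alone, a replicate block and leaving out mice were alternatives. Levels between genes used the deposited TPM. Gene positions are from GENCODE M21 (GRCm38) and sequences from RefSeq. Total counts ran from 13607229 to 21267375. The text names the members, of each pathway list the 2 genes with the largest change from 8 to 28 months past the threshold, and per member the 3 genes of highest within-age correlation, with Stat5b beside Stat5a. A result of the ligand list is not reported here. The members and lists were chosen with earlier results of these data known.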

Additional observations from a re-analysis of the deposited data

Results flagged for a closer look

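In 5 of the 54 groups of mice formed by a member and an age, the highest mouse lay farther from the next than Dixon's 95% limit. For normally distributed values chance alone passes this limit in about 1 in 20 groups. It was applied here to CPM without a log, where high values stretch the scale, so the 5 groups cannot be set against that rate. At 28 months replicate 2 was at 155 CPM of Il6ra, with the next mouse at 60.8 CPM, and at 49.9 CPM of Socs3, with the next at 10.003 CPM. Replicate 3 of 26 months was at 138 CPM of Stat3, with the next at 103 CPM. Replicate 1 of 8 months was at 15.5 CPM of Socs2, with the next at 9.80 CPM. Replicate 1 of 24 months was at 11.8 CPM of Socs3, with the next at 6.04 CPM.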

How the results depend on the processing

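Of 9 members, 7 passed from 8 to 28 months, and 6 to 8 did under the other 8 settings and 5 to 8 when 1 mouse of 8 or 28 months was left out. Il6ra, Il6st, Osmr, Stat3 and Stat5a passed under all of these, Socs2 under all but leaving out replicate 2 of 28 months, and no member changed direction. Socs3 lost its call without replicate 2, 6 or 7 of 8 months or replicate 2 of 28 months (0.45), with limma (0.73 and 0.87 at pseudocounts of 1 and 0.1 TPM), with the 2 ages alone (1.31) and with the replicate block (1.13). Lifr passed with limma (0.59 and 0.63), DESeq2 (0.48) and without replicate 2, 6 or 8 of 8 months. From 8 to 26 months, where 4 members passed, limma on TPM gave 2 at either pseudocount, and leaving out 1 mouse gave 2 to 4. The leaving out of 26-month mice was chosen after seeing the data. From 22 to 28 months, where 6 passed, the other settings gave 4 to 6, with the calls of Lifr, Stat5a or Stat3 lost. Leaving out 1 mouse of 28 months gave 4 to 7 there, and leaving out 1 mouse of 8 or 28 months gave 5 to 7 at any age. Why these calls moved was not tested. With the replicate block 6 members passed from 8 to 28 months, 4 from 8 to 26 months, 6 from 22 to 28 months and 5 at any age. The numbers name mice and do not pair them: mice of the same number at different ages correlated at a mean r of 0.03 in their deviations (-0.55 to 0.38). The lowest counts of a mouse were 24 for Cish and 32 for Socs3, and the part of depth in the spread among mice was not tested.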
